A study of Mus musculus with 10 samples.

Results

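The 5 genes studied here code for mucin-like glycoproteins of epithelial surfaces. Dmbt1, Muc1, Muc4, Muc15 and Muc20 were followed through RNA sequencing of sorted mouse mammary epithelial cells. They were chosen by name, and in part on measured values: the set was put together knowing that Dmbt1 differs strongly between the luminal columns, so that difference is given as a description and supports nothing. All 5 were found among 23973 symbols, of which 16652 had a count in at least 1 column. The series asks what Bptf, a subunit of the chromatin remodeller NURF, does in mammary stem cells. Female mice wild type (WT) or knockout (KO) for Bptf had all been given tamoxifen to a total of 15 mg per kg, and their mammary glands were then taken. The 10 libraries form 5 groups of 2, which are WT luminal, KO luminal, WT myoepithelial (basal), KO myoepithelial, and a KO population that the labels call Bsecs without spelling it out. The floxed allele, the Cre driver, the age of the mice and the sort gates are not stated in the sources used here.

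The deposited tables give 1 column per group, headed as a mean, and none per library. Each column holds whole read counts times 1 factor, and whether it pools both libraries or holds 1 is unknown. No value here thus has an error between replicates, and intervals cover counting error only. The columns held 2729006 (WT luminal), 3840462 (labelled KO luminal), 3659403 (Bsecs), 2359861 and 2036681 counts. The last 2 are the basal columns, which carry opposite genotype names in different tables, so they are called the larger and the smaller basal column and no genotype is read from them. Both libraries labelled KO luminal also have a source label that names WT mice. Bptf had 640 counts in WT luminal, 1018 in the luminal column labelled KO, 645 in Bsecs, 780 in the larger basal column and 420 in the smaller. These Bptf counts are not on a common scale, for which the factors ran from 0.753 (smaller basal column) to 1.38 (luminal column labelled KO). A count over the whole gene does not check a deletion of some exons. The lineage names fit the summed marker levels on a common scale. The 16 luminal markers summed to 75010 in WT luminal and 86080 in the luminal column labelled KO, against 4581 (larger) and 5959 (smaller) in the basal columns. The 10 basal markers summed to 254 and 764 in the luminal columns, against 25813 and 47679 in the basal ones. Presence above 3 counts did not separate them. All 16 luminal markers had it in both luminal columns, but 13 also in the larger basal column. All 10 basal markers had it in both basal columns, but 9 also in the luminal column labelled KO. Rn45s, the precursor of ribosomal RNA, made up 32.2% of counts in Bsecs and 9.76% to 16.2% elsewhere.

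Mucins carry long stretches of serine and threonine that are covered with O-linked sugars, and they hydrate and protect the free surface of an epithelium. Membrane mucins stay anchored by a transmembrane segment, and some also signal: Muc1 has a cytoplasmic tail that binds beta-catenin and kinases, Muc4 engages the receptor ErbB2, and MUC20 binds the receptor Met. In the breast Muc1 lines the apical face of luminal cells and, with Muc15, is carried into milk on the membrane of the fat globule. Dmbt1 is not a membrane mucin. It is a secreted, heavily glycosylated protein built from scavenger receptor cysteine-rich (SRCR) repeats that binds bacteria at mucosal surfaces, and as hensin it is known for its part in epithelial differentiation.

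Dmbt1 was by far highest in the luminal column labelled KO. It had 11689 counts there, 138 in WT luminal, 109 in Bsecs, 38 in the larger basal column and 0 in the smaller. On a common scale over the 5 columns (normalised counts, a level), this was 8448 (95% Poisson interval 8296 to 8603), 123 (104 to 146), 115 (94.3 to 139) and 36.5 (25.9 to 50.2), and 0 in the smaller basal column, where 3 counts would be a level of 3.98. One column thus stood apart, while the intervals of WT luminal and Bsecs overlapped. Among the genes detected in each column, Dmbt1 had a higher count than 99.9% of them in the luminal column labelled KO and than 72.4% in WT luminal. Its value in the luminal column labelled KO was 67.5 times that of WT luminal (57.1 to 80.4), the contrast used to choose it.

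Muc4 and Muc1 were the most abundant of the membrane mucins, and both were luminal. Muc4 had 2382 counts in WT luminal, 858 in the luminal column labelled KO, 2 in Bsecs, 29 in the larger basal column and 2 in the smaller. Its levels were 2127 (2042 to 2214), 620 (579 to 663), 2.11 (0.255 to 7.61), 27.9 (18.7 to 40.05) and 2.66 (0.322 to 9.59). The luminal columns lay far above the other 3, and Bsecs and the smaller basal column could not be told apart. Muc1 had 320 counts in WT luminal, 560 in the luminal column labelled KO, 2 in Bsecs, 14 in the larger basal column and 32 in the smaller, at levels of 286 (255 to 319), 405 (372 to 440), 2.11 (0.255 to 7.61), 13.5 (7.36 to 22.6) and 42.5 (29.1 to 60.0). For Muc1 the order of the basal columns was the reverse of that for Muc4. In bulk columns fewer cells of a type and less RNA per cell cannot be told apart.

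Muc20 and Muc15 were read less often. Muc20 had 70 counts in WT luminal, 77 in the luminal column labelled KO, 1 in Bsecs, 9 in the larger basal column and 0 in the smaller. Its luminal levels of 62.5 (48.7 to 79.0) and 55.7 (43.9 to 69.6) overlapped. Muc15 had 119 counts in WT luminal, 16 in the luminal column labelled KO, 0 in Bsecs, 8 in the larger basal column and 0 in the smaller. Its level of 106 (88.03 to 127) in WT luminal stood apart from 11.6 (6.61 to 18.8) in the luminal column labelled KO, which overlapped the 7.69 (3.32 to 15.2) of the larger basal column.

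**Figure D1:**
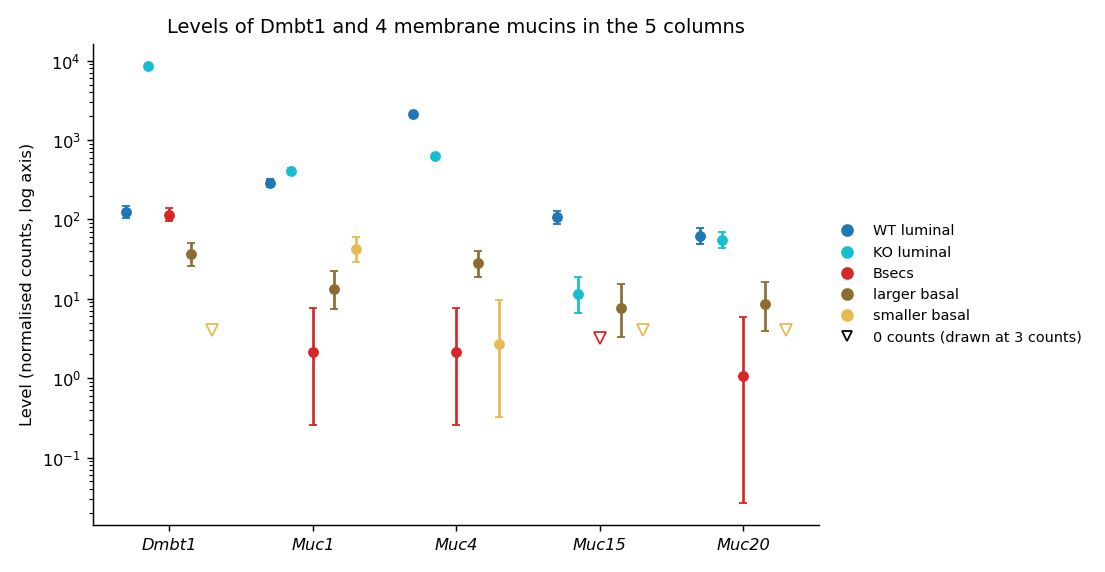
Level (normalised counts, log axis) of each gene in the 5 columns, with 95% Poisson intervals of counting error; open triangles mark 0 counts, drawn at the level of 3 counts. Dmbt1 peaks in the luminal column labelled KO at 8448, Muc4 in WT luminal at 2127, and the 4 membrane mucins have 0 to 2 counts in Bsecs.

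To set the genes beside each other, levels were divided by the length of their merged exons in GENCODE M21 (Dmbt1 7.057 kb, Muc1 2.346 kb, Muc4 11.757 kb, Muc15 3.569 kb, Muc20 4.027 kb). Per kilobase, Muc4 (181) and Muc1 (122) led in WT luminal cells, ahead of Muc15 (29.8), Dmbt1 (17.5) and Muc20 (15.5). In the luminal column labelled KO the order of these per-kilobase levels was Dmbt1 (1197), Muc1 (173), Muc4 (52.7), Muc20 (13.8) and Muc15 (3.24). In Bsecs Dmbt1 was at 16.3 per kilobase and each membrane mucin below 1, with Muc1 at 0.898.

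Muc4 and Muc20 lie beside each other on chromosome 16 and converge, with 627 bases of merged exons in common on opposite strands in GENCODE M21, which is 15.6% of the Muc20 exons and 5.33% of the Muc4 exons. Whether the authors' counting used strand is not stated in the sources used here, so reads in that stretch cannot be assigned to either gene with certainty. The reads of Muc20 per read of Muc4 were 0.0294 (95% binomial interval 0.0228 to 0.0373) in WT luminal and 0.0897 (0.0701 to 0.113) in the luminal column labelled KO, so these neighbours did not move in step. Muc15 shares 61 bases (1.71% of its exons) with the opposite-strand gene Ano3, which had 2 counts in WT luminal and 22 in the luminal column labelled KO. Muc1 lies on chromosome 3, Dmbt1 on 7 and Muc15 on 2.

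The 250 bases before the start are shown for Muc1, Muc4 and Muc20, the only members for which this sequence was available. These 3 of the 5 genes matched by symbol in the RefSeq promoter table (GRCm38.p6, another build than the mm9 named for the counts), and Dmbt1 and Muc15 are named only. Both strands were searched for 6 motifs, picked after the sequences were seen. The TATA box was searched as TATAAA, and the E-box, bound by helix-loop-helix and Snail factors, was searched as CACCTG. The GC box of Sp1-like factors was searched as GGGCGG, and the core bound by ETS factors was searched as AGGAAG. The palindrome of STAT factors was searched as TTCNNNGAA, and that of grainyhead-like factors was searched as AACNNGTT. Capitals mark matches, none of which overlap. The windows are chr3:89228806-89229055 (plus strand), chr16:32735636-32735885 (plus strand) and chr16:32797436-32797685 (minus strand), each written 5′ to 3′ in the direction of its gene.
Muc1: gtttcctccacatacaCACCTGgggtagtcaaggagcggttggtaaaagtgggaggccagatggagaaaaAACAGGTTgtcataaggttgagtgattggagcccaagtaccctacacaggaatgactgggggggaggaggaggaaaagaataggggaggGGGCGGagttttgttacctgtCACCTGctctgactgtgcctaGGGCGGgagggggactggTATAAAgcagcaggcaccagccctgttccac
Muc4: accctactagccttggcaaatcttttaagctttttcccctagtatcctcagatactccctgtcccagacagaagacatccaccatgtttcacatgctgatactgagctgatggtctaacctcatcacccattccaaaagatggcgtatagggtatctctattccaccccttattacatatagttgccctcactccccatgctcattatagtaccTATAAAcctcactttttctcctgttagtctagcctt
Muc20: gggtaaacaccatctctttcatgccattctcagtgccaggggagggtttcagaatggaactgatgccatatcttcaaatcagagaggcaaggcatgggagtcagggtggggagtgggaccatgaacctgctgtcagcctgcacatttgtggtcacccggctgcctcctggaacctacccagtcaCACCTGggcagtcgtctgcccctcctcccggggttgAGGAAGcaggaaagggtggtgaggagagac
Muc1 and Muc4 hold a TATA box, starting 31 and 36 bases before the start, as do 12.4% of the 32851 promoters of this length. Muc1 holds 2 E-boxes and Muc20 holds 1, as do 17.2% of all promoters with at least 1. The Muc1 window also has 2 GC boxes (32.7% of promoters have at least 1) and 1 AACNNGTT match (3.64%), and Muc20 has 1 ETS core (29.5%). A TTCNNNGAA match, present in 7.02% of promoters, was in none of the 3 windows. No motif was in all 3. The bases G and C made up 54.8% of the Muc1, 43.6% of the Muc4 and 57.2% of the Muc20 window, against a median of 52.4% over all promoters.

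The luminal comparison asks what separates KO from WT luminal cells, and none of the membrane mucins was higher in the way of Dmbt1. Muc4 had a value 3.48-fold lower in the luminal column labelled KO (95% binomial interval of the reads 3.22 to 3.77) and Muc15 one 9.33-fold lower (5.52 to 16.9). Muc1 was at 1.39 times its WT value (1.21 to 1.60) and Muc20 at 0.876 times (0.626 to 1.23). After Benjamini-Hochberg adjustment, over all genes, of the p-values that DESeq gave in the authors' deposited table, none of the 4 membrane mucins passed 0.05, while Dmbt1, chosen on this contrast, was past it (0.0882% of 14736 genes passed). The unadjusted p in the authors' deposited table was 0.0121 for Muc4 and 0.00641 for Muc15, with adjusted p of 1 and 0.845, and 0.513 for Muc1 and 0.872 for Muc20. All 5 had a mean value of at least 50 in this table, and Dmbt1 and Muc15 were at least 4-fold apart, a gap found for 4.15% of 6962 such genes. Nothing is read from that count, since Dmbt1 was chosen on it and Muc15 reached the mean through WT luminal alone. Per read of Muc4, the reads of Muc1 numbered 0.134 (0.119 to 0.151) in WT luminal and 0.653 (0.586 to 0.727) in the luminal column labelled KO.

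**Figure D2:**
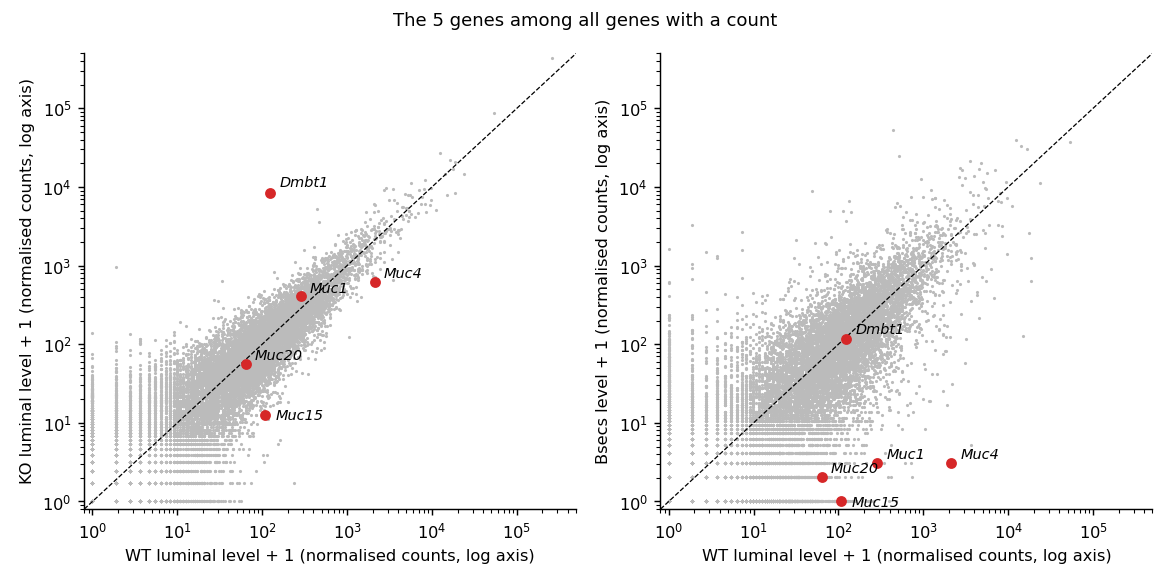
Level plus 1 of every gene with a count (grey, log axes) in WT luminal against the luminal column labelled KO (left) and against Bsecs (right), with the 5 genes in red and the line of equal levels dashed. Dmbt1 lies above the line on the left and on it on the right, while Muc1, Muc4, Muc15 and Muc20 lie at the bottom of the right panel with 0 to 2 counts in Bsecs.

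Other cell types were checked beside this difference. The summed level of 6 immune markers was 66.1 in WT luminal and 66.5 in the luminal column labelled KO, nearly all of it Cd68 (63 and 82 counts), with the T cell marker Cd3e at 0 in both and the pan-leukocyte marker Ptprc at 1 and 3 counts. The summed level of 10 basal markers was 254 in WT luminal and 764 in the luminal column labelled KO, against 25813 and 47679 in the basal columns, where Dmbt1 was at 36.5 and 0, and 17739 in Bsecs, where Dmbt1 was at 115. The 5 fibroblast markers summed to 816 and 989, nearly all of it Dcn (775 and 983). Of these 5, 1 had a higher and 4 a lower value in the luminal column labelled KO. Their median log2 fold was -1.20, against 0.10 over all genes. The 4 endothelial markers summed to 14.3 and 2.17. Their part in the mucin differences was not tested.

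Bsecs were set against the luminal columns to place this population beside the luminal lineage, and the membrane mucins were all but missing from it. Against WT luminal, Muc4 was 968-fold lower in Bsecs (268 to 7995), and this call passed with an adjusted p of 0.00931 computed from p in the authors' deposited table, by Benjamini-Hochberg adjustment. Muc1 was 130-fold lower (35.7 to 1078; adjusted p = 0.121), Muc20 56.9-fold (9.88 to 2278; adjusted p = 1) and Muc15, with 0 counts, at least 32.2-fold lower (adjusted p = 0.373), none of them past the test. Dmbt1 was at 0.972 times its WT luminal value (0.749 to 1.26). The test was passed here by 0.210% of 14304 genes, and 18.8% of 6352 genes with a mean value of at least 50 were at least 4-fold apart, among them Muc1, Muc4 and Muc15 of the 4 members above that mean. Those 3 reached the mean through the luminal column alone.

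Against the luminal column labelled KO, Muc4 was again lower in Bsecs, 286-fold (78.9 to 2365), with an adjusted p of 0.0429 by the same adjustment of the authors' deposited table. Muc1 was 187-fold lower (51.4 to 1545) at an adjusted p of 0.0660 and Muc20 51.3-fold (8.94 to 2054) at 1. Muc15 was at least 3.56-fold lower. Dmbt1, 71.5-fold lower (59.2 to 87.1), did not pass, with an adjusted p of 0.452. The share of genes past the test was 0.0405% of 14800, and 16.5% of 6654 were at least 4-fold apart, as were Dmbt1, Muc1 and Muc4, the 3 members with a mean value of at least 50, which Muc1 and Muc4 reached through the luminal column alone. Both tables share the Bsecs column, so their values are given side by side and are not independent.

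**Figure D3:**
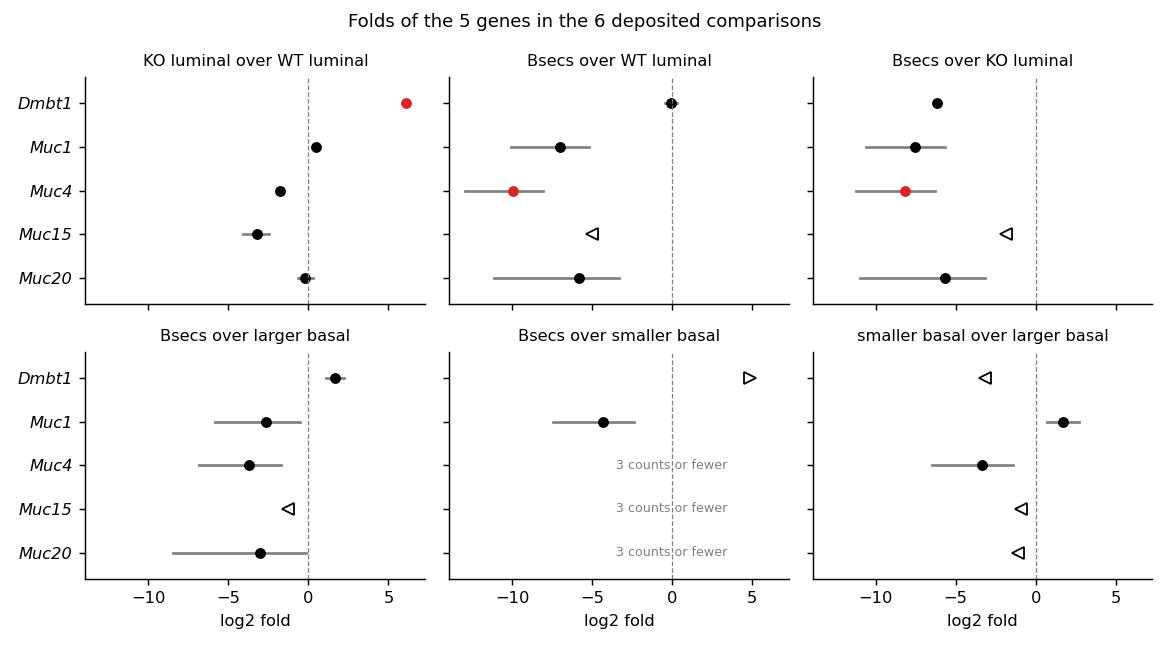
log2 fold of each gene in the 6 deposited comparisons, with 95% binomial intervals of the split of the reads; red points passed an adjusted p of 0.05, and open triangles are bounds against 0 counts. Dmbt1 over WT luminal is at 6.08 in the luminal column labelled KO and at -0.04 in Bsecs, while Muc4 in Bsecs is at -9.92 and -8.16 against the luminal columns.

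Other luminal genes were present in Bsecs at varied levels, and Muc1, Muc4, Muc15 and Muc20 lay at the low end. As a share of the WT luminal level, Bsecs had 0.0991% for Muc4, 0.737% for Muc1, 1.69% for Muc20 and 93.2% for Dmbt1. Other mucins were at 5.9% (Muc13), 14.4% (Cd164), 18.1% (Podxl) and 45.2% (Parm1). For the simple-epithelium keratins the share was 14.4% (Krt8), 14.5% (Krt18), 78.3% (Krt19) and 62.7% (Krt7). The adhesion molecule Epcam was at 87.3%, and the tight junction proteins Cldn4 and Cldn3 at 317% and 9.66%. The hormone-sensing factors Foxa1 and Esr1 were at 95.1% and 19.8%. Of the 16 luminal markers, 2 had a higher and 14 a lower value in Bsecs than in WT luminal. Their median log2 fold was -1.05, against -0.09 over all genes. Among the 16 luminal markers the prolactin receptor Prlr was at 0.835% of its WT luminal level and the alveolar factor Elf5 at 4.37%, and the receptor Kit had 0 counts in Bsecs. The low shares were thus not limited to mucins, nor shared by all of them. Basal markers moved the other way. Their summed level over 10 markers was 17739 in Bsecs, against 254 in WT luminal and 764 in the luminal column labelled KO. Most of this Bsecs sum came from Krt14 (8945), Krt17 (5008) and Krt5 (3307). Acta2 was at 144, against 11621 (larger) and 16612 (smaller) in the basal columns. Of the 10, 3 had a higher value in Bsecs and 7 a lower against the larger, and 2 and 8 against the smaller. Myh11, Cnn1 and Oxtr passed as lower against both, and Mylk against the smaller alone. None passed as higher. Krt5, a basal keratin, had 3139 counts in Bsecs, 1 in WT luminal and 42 in the luminal column labelled KO, and rose against WT luminal (adjusted p = 0.00931 by Benjamini-Hochberg adjustment of the authors' deposited table). Against the luminal column labelled KO it did not pass (adjusted p = 0.0953 by the same adjustment). No other of the 10 basal markers passed against either luminal column. The part of basal cells in the mucin differences was not tested.

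**Figure D4:**
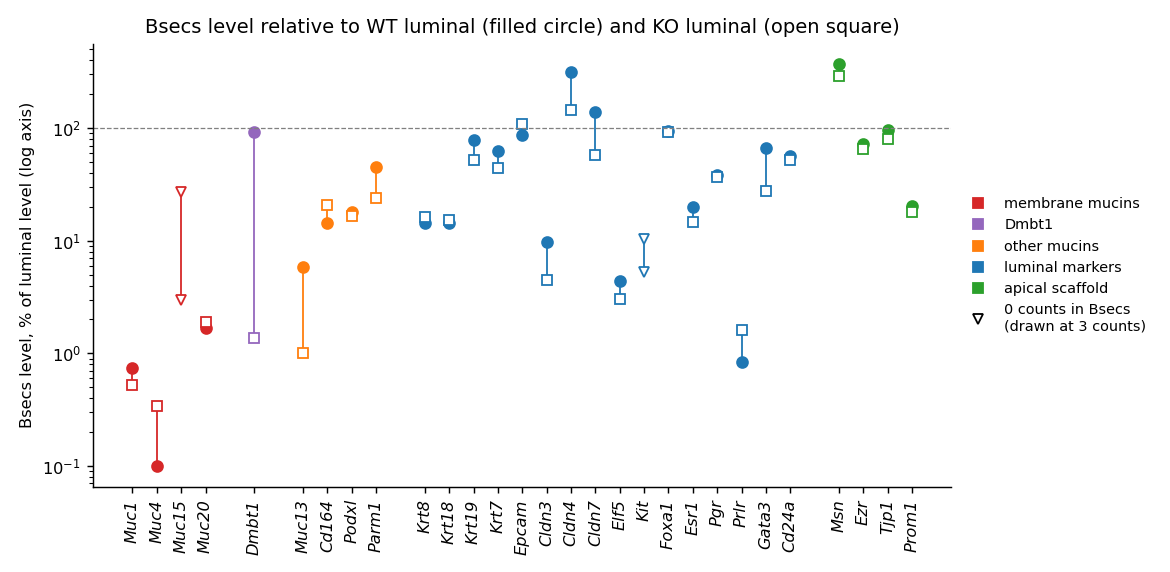
Bsecs level as a percentage of the WT luminal (filled circles) and KO luminal (open squares) level on a log axis for the members, 4 other mucins, 16 luminal markers and 4 apical scaffold genes; triangles have 0 counts in Bsecs. Muc4 sits lowest of the genes with a count in Bsecs, at 0.0991% and 0.340%, Muc15 and Kit have 0 counts there, while Dmbt1 is at 93.2% of WT and 1.36% of KO luminal.

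The basal columns held little of these genes. Against the larger basal column Dmbt1 was 3.16 times higher in Bsecs (2.16 to 4.69) and Muc4 13.2-fold lower (3.33 to 114), neither past the test, for which the authors' deposited table gave p of 0.266 and 0.183. None of the 5 members passed there, where 0.480% of 14986 genes did, and the 1 member with a mean value of at least 50, Dmbt1, was not among the 15.0% of 6080 genes at least 4-fold apart. Against the smaller basal column Dmbt1 had 109 counts to 0 and was at least 28.6-fold higher in Bsecs (adjusted p = 0.171, computed from p in the authors' deposited table with Benjamini-Hochberg adjustment). Muc1 was 20.3-fold lower in Bsecs there (5.18 to 175), with an unadjusted p of 0.119 in the authors' deposited table. None of the 4 members with a p passed in that table, against 0.759% of 13698 genes. No member reached a mean value of 50 in it, where 15.2% of 5664 genes that did were at least 4-fold apart.

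Between the basal columns themselves, Dmbt1 was at least 9.05-fold lower in the smaller one (0 against 38 counts) and Muc4 10.4-fold lower (2.62 to 89.6). Muc1 went the other way, 3.20 times higher (1.66 to 6.49). Muc15 and Muc20, with 8 and 9 counts in the larger column and 0 in the smaller, were at least 1.90-fold and 2.14-fold lower. None of these passed, where 0.0274% of 14595 genes did, and none had a mean value of 50, where 5.76% of 5691 such genes were at least 4-fold apart. The larger basal column also held more of Cldn4 (374 counts against 4) but less of Krt8 (123 against 350) and Esr1 (30 against 713). Of the luminal markers Cldn4 and Esr1 passed the test (adjusted p = 0.0123 and 0.0023 by Benjamini-Hochberg adjustment of the authors' deposited table). The summed level of the 16 luminal markers was 4581 in the larger column and 5959 in the smaller, of which Esr1 made up 28.8 and 947. Of the 16, 9 had a higher and 7 a lower value in the smaller column. Fibroblast markers summed to 1920 in the larger and 312 in the smaller column, and endothelial markers to 206 and 45.1. The part of these cell types in the values was not tested.

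Taking both lineages at once, the lower luminal level was compared with the higher basal level. It was 22.2 times as high for Muc4, 6.73 for Muc1, 6.43 for Muc20, 3.37 for Dmbt1 and 1.5 for Muc15. A gap of at least 4-fold at a mean level of at least 50 was found for 387 of 6455 genes (6.0%), among them Muc1 and Muc4, which reached that mean through the luminal columns alone, while Muc20 met the gap at a mean level of 25.6. Of those 387 genes, 190 (49.1%) were also at least 4-fold below both luminal columns in Bsecs, again with Muc1 and Muc4 among them. Low Bsecs levels are therefore common to about as many of the luminal genes as not. Without the luminal column labelled KO, whose labels conflict, the gap was 76.3-fold for Muc4 and 13.8-fold for Muc15 and 4 members reached 4-fold. Without the larger basal column it was 234-fold for Muc4, at least 14.0-fold for Muc20, at least 30.9-fold for Dmbt1 and at least 2.90-fold for Muc15. The 234-fold gap rests on 2 Muc4 counts in the smaller basal column, fewer than the 3 at which zeros are placed. Without the smaller basal column it was 21.2-fold for Muc1.

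The genes nearest to each member by pattern were found by the root mean square distance of log2(level + 1), centred on its mean, over the 5 columns and 6306 genes with a mean level of at least 50. Nearest to Dmbt1 was Ido1, which breaks down tryptophan, at a distance of 1.29, with 453 counts in WT luminal, 2353 in the luminal column labelled KO, 72 in Bsecs, 25 in the larger basal column and 0 in the smaller. It was followed by Ly6a (1.76), the tetraspanin Cd82 (1.85), the tight junction protein Cgn (1.85) and the protease Tmprss13 (1.88). Muc4 was nearest to Rab17 (0.877), Car2 (0.879), the casein Csn3 (1.02), Galnt9 (1.04) and Ccdc162 (1.06). Nearest to Muc1 were Mast3 (0.483), Wdr19 (0.643), Tgm1 (0.698), Snhg11 (0.704) and Lcmt1 (0.735). Muc15 was nearest to Arg1 (0.612), Arhgef6 (0.746), Tlr4 (0.747), Kcnh1 (0.805) and Cd55 (0.823), and Muc20 to Notch3 (0.474), the claudin Cldn1 (0.495), Itih5 (0.611), Reg3g (0.620) and Tlr4 (0.622). Among the members, Muc15 and Muc20 were nearest to each other (1.0) and Dmbt1 and Muc1 farthest apart (3.89). With 5 points these distances are a description.

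Of 19 other mucins and sialomucins on a fixed list, 14 had a count and none passed the test in any of the 6 tables. Nothing is read from this absence, as only 0.0274% to 0.759% of all genes passed, depending on the comparison. The endosomal sialomucin Cd164 was the most abundant by count, with levels of 9657 in WT luminal, 6765 in the luminal column labelled KO, 1392 in Bsecs, 738 in the larger basal column and 721 in the smaller. Podxl, an apical sialomucin, was at 1132, 1243, 204, 30.8 and 6.64 in the same order. Muc13, a membrane mucin of the gut, had 40 counts in WT luminal, 291 in the luminal column labelled KO, 2 in Bsecs and 0 in both basal columns. Its value was 5.80 times higher in the luminal column labelled KO (4.15 to 8.28), not past the test (adjusted p = 0.851 by Benjamini-Hochberg adjustment of the authors' deposited table). Between the luminal columns the median log2 fold of the 10 measured members was 0.90 with 1 added to each value, or 0.11 with genes at 0 placed at 3 counts, against 0.10 over all genes. Of 15 other SRCR proteins, 7 were measured there and none passed in any table, with Lgals3bp, a galectin-binding protein, at 373 in WT luminal and 260 in the luminal column labelled KO.

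Of 31 listed enzymes and factors that build mucin sugars, 28 had a count and none passed in any table. This absence is near the share over all genes, of which 0.0274% to 0.759% passed. The median log2 fold of the 25 measured between the luminal columns was 0.20, against 0.10 over all genes. St3gal1, which adds sialic acid, was at levels of 1106, 1077 and 1092 in WT luminal, the luminal column labelled KO and Bsecs, and Galnt3, which starts O-glycans, at 306, 208 and 251. Among 16 binding partners and sheddases, 15 of them with a count, none passed either. Lgals3, the galectin that binds Muc1 and Dmbt1, was at 5425 in WT luminal, 4892 in the luminal column labelled KO and 640 in Bsecs. Met, a partner of Muc20, was at 2427, 909 and 450. Erbb3, a relative of the Muc4 partner ErbB2 that was named after its values were seen, had 388, 452 and 2 counts, and was 158-fold lower in Bsecs than in WT luminal (43.3 to 1306; adjusted p = 0.0793 by Benjamini-Hochberg adjustment of the authors' deposited table). Erbb2 itself did not share this fall, with 135, 506 and 354 counts. Its value in Bsecs was 3.23 times that of WT luminal (2.64 to 3.96) and 1.05 times that of the luminal column labelled KO (0.914 to 1.20).

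Most genes of the apical membrane scaffold had lower values in Bsecs than in either luminal column without a call. None of 16 listed passed in any table, where 0.0274% to 0.759% of all genes did. Of the 14 measured, 12 had a lower value in Bsecs than in the luminal column labelled KO, at a median log2 fold of -1.55 (all genes -0.21). Against WT luminal 11 had a lower value, at -0.86 (all genes -0.09). Prom1, an apical membrane protein, was at 880 in WT luminal, 993 in the luminal column labelled KO and 178 in Bsecs, while the actin linker Msn was at 2879, 3690 and 10646. Ezr, the linker of apical microvilli, was at 2139, 2378 and 1541.

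On the milk fat globule membrane, where Muc1 and Muc15 are also found, 1 of 9 measured genes fell in Bsecs against WT luminal and none rose, where 0.210% of all genes passed. This was the butyrophilin Btn1a1, with 436 counts in WT luminal, 111 in the luminal column labelled KO and 0 in the other 3 columns, at least 118-fold lower in Bsecs (adjusted p = 0.0185 by Benjamini-Hochberg adjustment of the authors' deposited table). The median log2 fold of the list was -1.78 (-1.68 with genes at 0 placed at 3 counts), against -0.09 over all genes. Between the luminal columns it was -0.53 (-0.16 with genes at 0 placed at 3 counts), against 0.10 over all genes. Mfge8, the lactadherin of the globule, was at 1527, 1818 and 425 in WT luminal, the luminal column labelled KO and Bsecs, and so did not share the direction of Muc15 and Btn1a1 between the luminal columns.

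Among 18 genes of mucosal surface defence, to which Dmbt1 belongs by function, lactoferrin (Ltf) fell in Bsecs against both luminal columns and no other passed in any table. The share of all genes past the test was 0.210% against WT luminal and 0.0405% against the luminal column labelled KO. It had 4126 counts in WT luminal, 1208 in the luminal column labelled KO and 4 in Bsecs. Ltf was 838-fold lower than in WT luminal (327 to 3077; adjusted p = 0.0289 by Benjamini-Hochberg adjustment of the authors' deposited tables) and 201-fold lower than in the luminal column labelled KO (78.4 to 740; adjusted p = 0.0429). Lcn2, an iron-sequestering defence protein, was at 18548 in WT luminal, 20622 in the luminal column labelled KO, 644 in Bsecs, 10060 in the larger basal column and 8834 in the smaller. The chaperone Clu went the other way, at 3836, 6292 and 7951 in WT luminal, the luminal column labelled KO and Bsecs. Between the luminal columns none of 12 measured genes passed, where 0.0882% of all genes did. Their median log2 fold was 0.32, against 0.10 over all genes.

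Of 15 epithelial transcription factors, 2 rose in Bsecs against the larger basal column, Ehf and Foxa1, and 1, Foxa1, against the smaller, where 0.480% and 0.759% of all genes passed, and none fell in any table. Ehf, an ETS factor of epithelia, had 245 counts in WT luminal, 371 in the luminal column labelled KO, 135 in Bsecs and 0 in both basal columns, and Foxa1 had 268, 340, 216, 2 and 0. The progesterone receptor Pgr was at levels of 972, 1016, 371, 17.3 and 49.1. Elf5 had 27 counts in WT luminal, 48 in the luminal column labelled KO and 1 in Bsecs. Of the 15 factors, 11 had a lower value in Bsecs than in WT luminal, at a median log2 fold of -0.52 (all genes -0.09). Against the luminal column labelled KO 12 had a lower value, at -0.87 (all genes -0.21).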

How the data were processed

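RNA of FACS-sorted cells was turned into cDNA (Ovation RNA-seq V2) and barcoded libraries, per the labels' protocols. STAR, DESeq and the build mm9 are named, per the submitters' processing notes, while versions, counter and strand setting are not stated. From these the authors deposited, for 6 comparisons, tables with the mean signal per group (normalised counts), the ratio of the means (fold) and an unadjusted p-value, per the file headers. Dividing each column's means by its step gave whole read counts, to within 0.01, for 100% of values. Groups followed the titles, and 0 columns per library and 0 columns of other samples or series were found. The deposited p-values thus compare 1 column with 1 column, and whether a column pools both libraries is unknown.

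Folds were recomputed from the means, with exact binomial (Clopper-Pearson) 95% intervals, and calls used Benjamini-Hochberg adjustment over all genes of a table at 0.05. A fold against 0 counts was computed against 3 counts. Since PCR copies are not independent molecules, intervals and floors hold counting error alone. Levels used median-of-ratios factors over the 5 columns (Python 3.11.15, SciPy 1.17.1). Counts under edgeR 4.0.16 with assumed dispersions were an alternative. The 25 symbols that were dates or duplicated were left out of results per gene. The steps were tested on simulated data. The members, lists and tests were chosen with earlier results of these data known. The text names the 5 members and, per list, up to 4 genes by mean level. Genes past 0.05 are all named for the lists other than cell type markers, of which only some are named. The text also names the 5 genes nearest to each member in pattern, without predicted genes and small RNAs. Other names were chosen after their values were seen.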

Additional observations from a re-analysis of the deposited data

How the results depend on the processing

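No paired analysis was possible because the files hold no column per library, and leaving out a replicate could not be run for the same reason. Of 27 member folds, all kept their direction with totals without Rn45s as the scale (which shifts each log2 fold of a comparison by 1 constant, from -0.08 between the luminal columns to -0.36 for Bsecs over the larger basal column), with 5 added to each value, and with edgeR. The number of member calls was 3 in the main analysis (Muc4 in Bsecs against both luminal columns, and Dmbt1 in the contrast that chose it) and 4 when genes with a mean value under 10 were left out of the adjustment (Muc1 in Bsecs against the luminal column labelled KO then had an adjusted p of 0.0459). It rose to 13 and 20 with edgeR's exact test at assumed dispersions of 0.16 and 0.04, which stand in for a spread between replicates that was not measured. Calls among the listed genes, cell type markers left out, rose from 6 to 101 and 266. Over all genes, with 0.16 and then 0.04, the calls were 226 and 2578 between the luminal columns (13 in the main analysis), 1639 and 5148 for Bsecs over the luminal column labelled KO (6, or 13 without low genes), 1974 and 5290 over WT luminal (30), 1275 and 4312 over the larger basal column (72), 1382 and 4102 over the smaller (104), and 349 and 2997 between the basal columns (4, or 8 without low genes). With 0.16, Muc15 and Muc4 between the luminal columns did not pass (adjusted p of 0.0573 and 0.356), and with 0.04 both did. Of 24 list medians, 23 moved by less than 1.5-fold on the linear scale with 5 added in place of 1, and that of mucosal defence genes in Bsecs over the luminal column labelled KO went from -1.37 to -0.50. The genotype names of the basal columns decide the sign of KO over WT: with the names of the tables that hold Bsecs, the log2 folds were 3.18 for Dmbt1, -1.68 for Muc1, 3.37 for Muc4, 0.93 for Muc15 and 1.10 for Muc20, with zeros at 3 counts, and with those of the basal table the opposite. The 3 members with luminal levels at least 4-fold above both basal columns remained 3 in number under 3 other scales, and became 4 without the luminal column labelled KO or without the larger basal column. Settings that leave out a column, and those for the lists and all genes, were chosen after the data were seen. Depth limits Muc15 and Muc20, which had 9 counts or fewer outside the luminal columns.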

Other observations

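The genes below are from the fixed lists and were chosen after their values were seen. None passed the test between the luminal columns after adjustment, where 0.0882% of 14736 genes did. Galnt6, a starter of O-glycans, had 1 count in WT luminal and 68 in the luminal column labelled KO (54.2-fold, 9.40 to 2171), with 0 in the other 3 columns. The ferritin receptor Scara5, an SRCR protein like Dmbt1, had 62 counts in WT luminal, 6 in the luminal column labelled KO, 4 in Bsecs, 26 in the larger basal column and 154 in the smaller, so its highest value lay in the column where Dmbt1 had 0. Loxl4, another SRCR protein, had 270, 546, 142, 5 and 3 counts in the same order of columns, a difference of 1.61-fold (1.39 to 1.87) between the luminal columns.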
